A study of Homo sapiens with 4 samples.

Results

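Hypoxia-gene-high cells were the cells of each single-cell library that gave the largest share of their RNA to 8 genes known to be induced when oxygen is low. Cells with under 20% of unique molecular identifiers (UMIs, counts of distinct captured RNA molecules) from mitochondrial genes were ranked by the summed UMIs of NDRG1, ANGPTL4, ADM, VEGFA, CA9, BNIP3, EGLN3 and PDK1 over the total UMIs of the cell. The top 10% of each library were taken, which gave 1639 of 16400 cells. They were 699 of 6990 cells in the library Drug_Radiation, 380 of 3802 in Drug, 242 of 2425 in Radiation and 318 of 3183 in Control. They were compared with the other cells of their own library, which numbered 6291, 3422, 2183 and 2865. No cell barcode was shared between libraries.

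The cells were MSTO-211H, an established human pleural mesothelioma line with the label genotype WT, grown in suspension without serum on low-adhesion plastic, with SM1 supplement, EGF, bFGF and heparin. Drug_Radiation received 10 µM QTP and 4 Gy on the following day, Drug received QTP without irradiation, Radiation received 4 Gy with vehicle, and Control received vehicle with no irradiation. All 4 were collected 48 h after the time of irradiation, and QTP is placed under dopamine receptor inhibition by the series title. Each group was 1 library of pooled cells from 1 line, so no difference between groups had a replicate.

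Cells meet low oxygen through the hypoxia-inducible factors (HIFs). In normal oxygen the prolyl hydroxylases EGLN1 and EGLN3 mark the HIF alpha proteins for the VHL ubiquitin ligase, and in low oxygen the proteins escape it, pair with ARNT and bind DNA at sites with the core letters ACGTG or GCGTG. The genes they are known to raise bring in and burn glucose, hold back pyruvate from mitochondria, buffer acid, remodel collagen and signal to vessels. A share of RNA in these genes is not a measurement of oxygen, and no oxygen measurement was used here.

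The values that chose the cells are given as a description and carry no test. Per 1000000 UMIs of all genes, the 8 genes held 1468, 1769, 2319 and 1725 in hypoxia-gene-high cells of Drug_Radiation, Drug, Radiation and Control, against 607, 759, 717 and 425 in other cells. Values given for 4 libraries below keep that order. NDRG1, a stress-induced protein, and BNIP3, which marks mitochondria for removal, gave 73.7% to 82.8% of the ranking UMIs in hypoxia-gene-high cells and 78.2% to 83.6% in other cells. At the limit of the rule in Drug_Radiation, the last cell inside had 16 ranking UMIs of 13489 and the first cell outside had 17 of 14334. In Control the last inside had 2 of 1565 and the first outside 3 of 2350, so there the rule separated cells by a few molecules.

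The libraries differed in depth and in the number of ranking UMIs behind a cell's rank. Median UMIs per cell were 16655, 20639, 4765 and 2148.5 in hypoxia-gene-high cells, against 18161, 20382.5, 5370 and 2341 in other cells. A hypoxia-gene-high cell had a median of 25, 36, 10 and 4 ranking UMIs, and any other cell 10, 14, 3 and 1. When the UMIs of each cell were split at random into 2 equal parts and cells were ranked on the first, the 8 genes were 1.94, 1.98, 2.14 and 1.72 times higher in the top 10% than in other cells on the part that had not been used. On the part that had been used the same ratio was 2.62, 2.49, 3.77 and 5.68, and 58.5% (Control) to 73.2% (Drug) of the cells so chosen were also chosen on all UMIs. Each of the 8 genes in turn was also left out of the ranking. The gene left out was 1.30 to 4.02 times higher in the cells ranked highest by the other 7 genes. The exception was EGLN3 in Control, which rested on 1 UMI and had a ratio of 0.685. Some of the other ratios also rested on few UMIs in the chosen cells. The highest, ADM in Control, rested on 10 UMIs, and EGLN3 in Radiation (1.32) on 3.

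Hypoxia-gene-high cells were found at every depth, and made up 8.15% to 11.4% of each of 10 bins of cells by total UMIs in Drug_Radiation, 5.51% to 13.4% in Drug, 6.20% to 14.0% in Radiation and 7.21% to 13.5% in Control. The share of UMIs from mitochondrial genes had medians of 4.63%, 3.48%, 3.09% and 3.03% in hypoxia-gene-high cells, against 5.24%, 4.05%, 3.57% and 3.20% in other cells. It was lower in hypoxia-gene-high cells of all 4 libraries. Median genes detected per cell were 3973, 4521, 1661 and 899.5, against 3953, 4398, 1777 and 925 in other cells. These values were not tested, since total UMIs are part of the rule.

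Beyond the 8 ranking genes, hypoxia-gene-high cells carried more RNA of known HIF targets, of glucose breakdown, of the integrated stress response and of metallothioneins, and less RNA of the mitochondrial respiratory chain, of heat shock chaperones and of keratins. Most DNA replication genes were lower too, though their sum was lower in Drug alone. UMIs were summed over the cells of each class in each library, and the 8 sums were compared with edgeR's quasi-likelihood test with the library as a block, the 8 ranking genes and mitochondrial genes left out, and Benjamini-Hochberg adjustment over 14082 genes. At an adjusted p under 0.05, 2215 genes were higher (15.7% of genes tested) and 2707 were lower (19.2%) in hypoxia-gene-high cells. The median log2 ratio of all genes was 0.01. Counts for the gene lists below are to be read beside the shares of 15.7% and 19.2%. Genes higher in all 4 libraries as well as by the test numbered 1677 (11.9%), and genes lower in both ways 1671 (11.9%).

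Most of these differences were small. Among 4999 genes with a mean of at least 20 CPM (UMIs of a gene scaled to a total of 1000000 UMIs), 5 genes were at least 2-fold higher and 0 at least 2-fold lower in all 4 libraries, and at 1.5-fold these were 63 and 5 genes. The test asks whether a difference recurs over 4 libraries that were each treated in another way, and the deep libraries weigh most in it: without Drug_Radiation it called 1221 genes higher and 1659 lower, and without Drug 1325 and 1691. Scaling to plain totals in place of TMM gave 3457 higher and 1766 lower genes, so that 66.2% of calls were higher in place of 45.0%, and DESeq2 gave 958 and 1781. With each cell thinned to 1000 UMIs, 52 genes were higher and 72 lower.

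**Figure D1:**
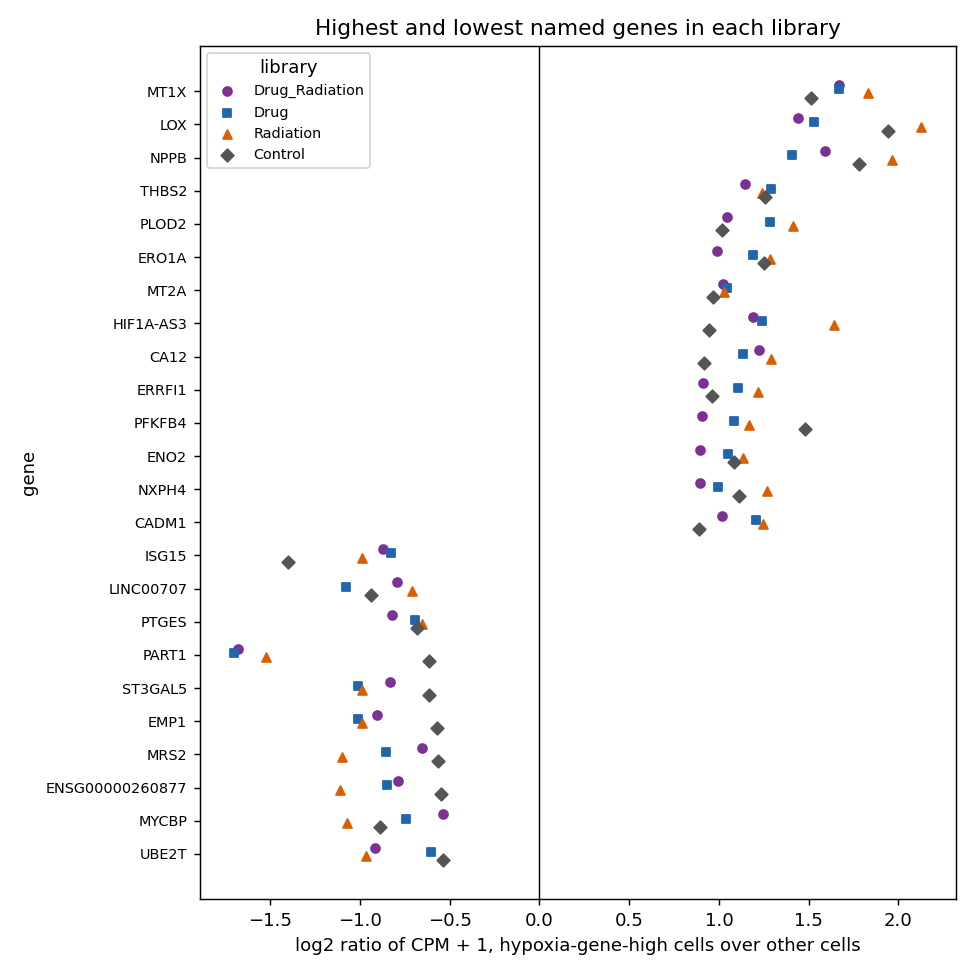
Log2 ratio of CPM plus 1, hypoxia-gene-high cells over other cells, for 14 of the 15 highest genes and the 10 lowest genes chosen by a fixed order (rows), with 1 symbol per library. All 4 symbols of each of the 14 genes lie right of 0 and all 4 of each of the 10 genes lie left of it.

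Some of the genes with the most even and largest excess are shown with their promoters, because HIF binding letters can be looked for there. Every promoter printed below was taken from those that held ACGTG. MT2A, CA12 and PFKFB4 held GCGTG alone and ERRFI1 held neither core, and their promoters are not printed. Of the 15 highest genes, 11 had a promoter in the RefSeq table (GRCh38.p14), here the 250 bases before the RefSeq start of the gene, and 7 of these 11 held ACGTG on either strand. Among 30 HIF targets tested that had a promoter, 18 held it (60.0%), and among the 26 of them that rose, 15 did (57.7%). ACGTG stood in 26.0% of promoters of all genes that rose, in 23.9% of genes that fell, in 23.4% of 10665 promoters of genes tested and in 18.7% of all 27305 promoters in the table. The other core, GCGTG, stood in 6 of the 11 promoters of the highest genes (54.5%), in 63.3% of promoters of HIF targets tested, in 46.8% of genes that rose, in 46.7% of genes that fell and in 45.3% of promoters of genes tested. The HIF target list was written with such genes in mind, and a match of letters is not a bound site.
Capitals mark ACGTG or GCGTG on the strand shown or, as CACGT or CACGC, on the other strand. LOX lies at chr5:122078260-122078509 (minus strand), PLOD2 at chr3:146161185-146161434 (minus), ERO1A at chr14:52695559-52695808 (minus), ENO2 at chr12:6914330-6914579 (plus) and MT1X at chr16:56682220-56682469 (plus). RefSeq starts differ from the outer ends of the genes in GENCODE 29, the source of the gene positions given here. By GENCODE the stretches of LOX and MT1X reach into the gene, and those of PLOD2, ERO1A and ENO2 lie within it.
LOX: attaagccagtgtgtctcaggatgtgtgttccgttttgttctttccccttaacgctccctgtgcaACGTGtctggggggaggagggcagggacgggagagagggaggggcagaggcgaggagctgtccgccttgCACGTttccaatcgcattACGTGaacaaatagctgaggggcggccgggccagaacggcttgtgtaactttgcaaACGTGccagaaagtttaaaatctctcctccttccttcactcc
PLOD2: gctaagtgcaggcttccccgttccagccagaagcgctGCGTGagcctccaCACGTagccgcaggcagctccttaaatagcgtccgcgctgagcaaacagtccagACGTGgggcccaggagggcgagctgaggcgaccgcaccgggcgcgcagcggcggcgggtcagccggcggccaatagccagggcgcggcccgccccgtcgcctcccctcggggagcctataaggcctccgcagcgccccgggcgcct
ERO1A: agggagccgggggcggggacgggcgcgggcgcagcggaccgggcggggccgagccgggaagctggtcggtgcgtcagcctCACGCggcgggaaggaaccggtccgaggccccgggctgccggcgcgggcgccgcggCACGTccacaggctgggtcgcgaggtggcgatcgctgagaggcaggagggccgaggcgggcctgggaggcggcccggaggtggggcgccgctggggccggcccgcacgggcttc
ENO2: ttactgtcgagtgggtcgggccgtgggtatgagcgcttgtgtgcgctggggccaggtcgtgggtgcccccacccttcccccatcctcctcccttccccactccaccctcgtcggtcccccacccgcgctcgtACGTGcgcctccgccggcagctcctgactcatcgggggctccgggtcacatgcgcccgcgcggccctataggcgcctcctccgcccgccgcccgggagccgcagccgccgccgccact
MT1X: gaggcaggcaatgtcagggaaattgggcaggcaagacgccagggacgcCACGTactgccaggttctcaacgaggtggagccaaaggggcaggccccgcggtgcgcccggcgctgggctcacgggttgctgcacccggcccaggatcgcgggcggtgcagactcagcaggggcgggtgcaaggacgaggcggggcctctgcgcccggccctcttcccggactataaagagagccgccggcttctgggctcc
LOX had 4 matches to ACGTG, PLOD2 2 with 1 match to GCGTG, ERO1A 1 of each, and ENO2 and MT1X 1 match to ACGTG each.

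HIF targets that were not used for ranking rose nearly as a whole. Of 44 listed, 41 could be tested, 37 rose, 0 fell and 4 did not pass the test, with a median log2 ratio of 0.62. All 4 libraries were higher for 35 of the 37. Summed over the list, hypoxia-gene-high cells had 5255, 5717, 5291 and 3653 CPM, against 3176, 3403, 3037 and 2121 CPM in other cells. The list shares its origin with the 8 ranking genes, so its direction is not independent of the choice of cells. When cells were ranked on 1 of 2 random equal parts of their UMIs and measured on the other, its median was 0.59, and with cells thinned to 1000 UMIs it was 0.29.

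The list holds several collagen-modifying enzymes, which need oxygen as a substrate. LOX (ENSG00000113083, chr5:122063195-122078360), the lysyl oxidase that crosslinks collagen, had 311, 325, 372 and 349 CPM in hypoxia-gene-high cells, against 114, 112, 84.4 and 90.0 CPM in other cells. Its groups did not overlap. The share of all genes tested whose groups did not overlap was not counted, so here and below such statements describe single genes. The order by smallest absolute log2 ratio that named the highest and lowest genes also favours such a gap. The log2 ratio of LOX was 1.56 ± 0.06 (SE, 4 pairs, adjusted p = 6.10e-20). In Control, where the counts were lowest, its log2 ratio was 1.94 with a 95% interval of 1.75 to 2.15 for counting error. PLOD2, a lysyl hydroxylase of collagen, had 61.6, 89.6, 60.6 and 45.1 CPM in hypoxia-gene-high cells, against 29.4, 36.2, 22.1 and 21.7 CPM in other cells. It rose by a log2 ratio of 1.12 ± 0.06 (adjusted p = 1.40e-16). P4HA1, a prolyl hydroxylase subunit for collagen, had 225, 282, 336 and 204 CPM, against 124, 158, 186 and 104 CPM in other cells, a log2 ratio of 0.77 ± 0.04. P4HA2 (0.76) and LOXL2 (0.62) rose too.

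Other targets that rose handle acid, fuel and disulfides. ERO1A, the oxidase that drives disulfide bond formation in the endoplasmic reticulum, had 230, 286, 229 and 180 CPM in hypoxia-gene-high cells, against 115, 125, 93.4 and 75.2 CPM in other cells, a log2 ratio of 1.05 ± 0.05 (adjusted p = 1.49e-18). CA12, a carbonic anhydrase of the cell surface, had 84.7, 78.6, 69.1 and 47.4 CPM, against 35.6, 35.2, 27.7 and 24.7 CPM in other cells, a log2 ratio of 1.12 ± 0.05. The 2 groups of libraries did not overlap for either gene. HILPDA, a lipid droplet protein, had 85.2, 119, 87.0 and 46.2 CPM, against 44.5, 58.2, 42.0 and 32.6 CPM in other cells, a log2 ratio of 0.89 ± 0.05. For HILPDA the Control value of hypoxia-gene-high cells lay inside the range of other cells of the other libraries, though above the other cells of its own. PFKFB4, which sets the level of an activator of glycolysis, had 43.1, 62.1, 41.9 and 35.6 CPM, against 22.5, 28.8, 18.1 and 12.1 CPM in other cells, a log2 ratio of 0.97 ± 0.06.

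Other targets on the list differed little or did not pass the test. DDIT4, an inhibitor of mTOR signalling, had 788, 746, 657 and 341 CPM in hypoxia-gene-high cells, against 563, 567, 532 and 283 CPM in other cells, a log2 ratio of 0.30 ± 0.04 (adjusted p = 4.47e-07). BHLHE40, a transcriptional repressor, had a log2 ratio of 0.15 ± 0.07 and did not pass the test (adjusted p = 0.0955). ADORA2B, an adenosine receptor, had 0.02 ± 0.06 (adjusted p = 0.808). The histone demethylase genes went apart, with KDM3A at 0.69 past the test and KDM4B at 0.17 and KDM4C at -0.15 not past it. The rule for low counts left out PLOD1, PPP1R3C and RIMKLA.

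**Figure D2:**
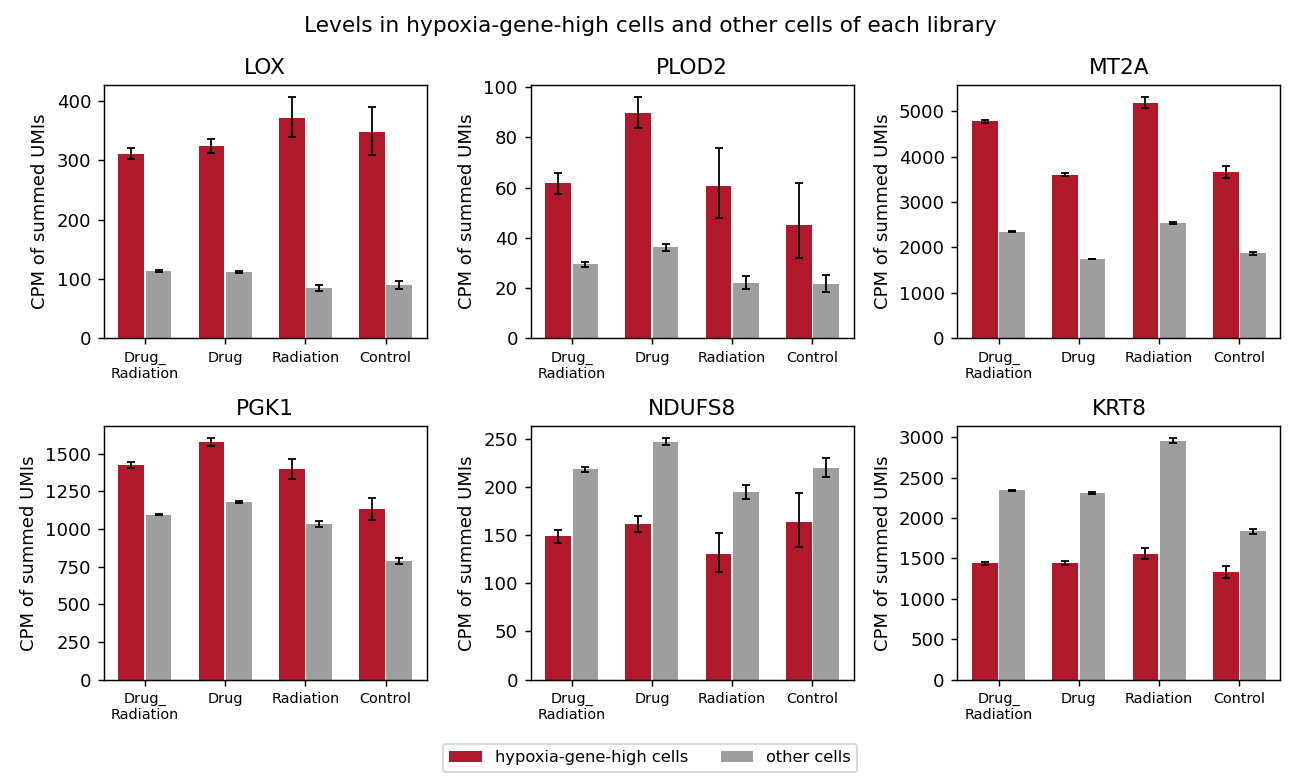
CPM of summed UMIs in hypoxia-gene-high cells (red, left bars) and other cells (grey, right bars) of each library, with 95% exact Poisson intervals for counting error. LOX, PLOD2, MT2A and PGK1 are higher and NDUFS8 and KRT8 lower in hypoxia-gene-high cells of every library.

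The HIF machinery itself did not move as its targets did. Of 14 components listed, 13 were tested, 2 rose and 4 fell, with a median log2 ratio of 0.05, while the sum of the list was lower in hypoxia-gene-high cells of all 4 libraries. EPAS1, the HIF-2 alpha subunit, had 40.2, 38.3, 32.6 and 20.2 CPM in hypoxia-gene-high cells, against 24.5, 21.4, 12.5 and 13.3 CPM in other cells, a log2 ratio of 0.72 ± 0.07 (adjusted p = 4.84e-10). HIF1A, the HIF-1 alpha subunit, had 58.5, 54.2, 38.8 and 45.1 CPM, against 62.9, 60.6, 43.9 and 42.8 CPM in other cells, a log2 ratio of -0.21 ± 0.05 (adjusted p = 0.00175). EPAS1 was higher in all 4 libraries, while HIF1A was lower in 3 libraries and higher in Control. With cells thinned to 1000 UMIs, HIF1A turned round, at 0.21. The coactivator EP300 rose by 0.32, and the partner ARNT (0.19) and the ligase subunit VHL (0.14) did not pass the test. ELOB, ELOC and RBX1, which build the VHL ligase with it, fell by 0.44, 0.20 and 0.26 on the log2 scale. The oxygen sensor EGLN1, counted among the targets, rose by 0.40.

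HIF1A-AS3, a long noncoding RNA gene at chr14:61715558-61751097 on the minus strand, overlaps HIF1A, which lies at chr14:61695513-61748259 on the plus strand. It had 31.1, 49.7, 43.5 and 24.9 CPM in hypoxia-gene-high cells, against 13.1, 20.5, 13.3 and 12.5 CPM in other cells, a log2 ratio of 1.20 ± 0.07 (adjusted p = 2.04e-15). The strand used in counting is not given in the sources used here, so reads of the overlapping genes may not be fully separated and both values are uncertain.

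Glycolysis rose in part. Of 18 glycolytic and lactate export genes tested, 12 rose, 3 fell and 3 did not pass the test, with a median log2 ratio of 0.21. ENO2, an enolase, had 157, 189, 148 and 75.9 CPM in hypoxia-gene-high cells, against 83.7, 90.8, 66.7 and 35.3 CPM in other cells, a log2 ratio of 0.92 ± 0.05 (adjusted p = 7.07e-17). SLC2A1, the glucose transporter GLUT1, had 189, 214, 182 and 88.9 CPM, against 137, 140, 113 and 59.4 CPM in other cells, a log2 ratio of 0.47 ± 0.04. The second transporter, SLC2A3, rose by 0.98 in the test, with 0.01 in Control.

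PGK1, phosphoglycerate kinase, had 1424, 1577, 1397 and 1131 CPM in hypoxia-gene-high cells, against 1096, 1182, 1034 and 787 CPM in other cells, a log2 ratio of 0.33 ± 0.03. LDHA, which makes lactate, had 1441, 1650, 1332 and 1218 CPM, against 1222, 1369, 1026 and 869 CPM in other cells, a log2 ratio of 0.22 ± 0.04. Both were higher in every library. PKM, pyruvate kinase, fell to 989, 1064, 823 and 446 CPM, against 1084, 1119, 963 and 470 CPM in other cells, a log2 ratio of -0.22 ± 0.04 (adjusted p = 1.15e-05), and PGAM1 and PFKM fell by 0.18 and 0.20. The median of the list depended on the ranking: with NDRG1 and BNIP3 both left out of it, the median was 0.03. It was 0.33 against the cells ranked in the lowest 50% alone.

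The nuclear-encoded respiratory chain fell almost without exception. Of 64 genes tested, 0 rose, 63 fell and 1 did not pass the test, with a median log2 ratio of -0.34, and 57 were lower in all 4 libraries. The exception was SDHA, a subunit of complex II, with 109, 128, 117 and 73.5 CPM in hypoxia-gene-high cells, against 109, 131, 122 and 79.9 CPM in other cells (log2 ratio -0.11 ± 0.05, adjusted p = 0.0534). Summed over the list, hypoxia-gene-high cells had 22166, 23983, 19366 and 22164 CPM, against 25991, 28044, 22640 and 26024 CPM in other cells. NDUFS8, of complex I, had 149, 162, 130 and 164 CPM, against 219, 247, 195 and 220 CPM in other cells, a log2 ratio of -0.66 ± 0.04 (adjusted p = 3.21e-14). The 2 groups did not overlap. ATP5MC1, of the ATP synthase ring, had 296, 271, 162 and 178 CPM, against 419, 385, 240 and 259 CPM in other cells, a log2 ratio of -0.61 ± 0.04.

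Falls were spread over the complexes of the chain, with NDUFB6 of complex I at -0.53, SDHC of complex II at -0.44, UQCR10 of complex III at -0.46, COX6C of complex IV at -0.37 and ATP5MF of the ATP synthase at -0.59. ATP5MC2 (-0.09) was the smallest fall and was at 0.00893 under plain totals. It had 1033, 1043, 823 and 813 CPM in hypoxia-gene-high cells, against 1024, 1033, 809 and 838 CPM in other cells, so by CPM it was higher in 3 of the 4 libraries. The median was -0.24 under plain totals, where 56 genes fell, -0.22 with equal weight per cell and -0.17 with cells thinned to 1000 UMIs.

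Genes of the integrated stress response, the ATF4 program that answers amino acid shortage and endoplasmic reticulum stress, rose with the HIF targets. Of 29 tested, 24 rose and 0 fell, with a median log2 ratio of 0.49, and 21 were higher in all 4 libraries. DDIT3, the factor CHOP, had 120, 164, 112 and 67.6 CPM in hypoxia-gene-high cells, against 68.8, 81.7, 44.4 and 37.5 CPM in other cells, a log2 ratio of 0.85 ± 0.05 (adjusted p = 1.55e-14). STC2, a secreted stanniocalcin, had 386, 388, 412 and 157 CPM, against 218, 201, 193 and 77.8 CPM in other cells, a log2 ratio of 0.85 ± 0.04. TRIB3 (1.03), CHAC1 (0.91), SESN2 (0.81) and ATF4 itself (0.46) rose as well.

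Among members that make or move amino acids, some rose and others did not pass the test. SLC7A5, the large neutral amino acid carrier, rose by 0.79 and the serine synthesis enzymes PHGDH and PSAT1 by 0.72 and 0.52, while PSPH, the last enzyme of that route, stood at 0.02 and did not pass the test. The transfer RNA synthetases CARS1, GARS1 and AARS1 rose by 0.55, 0.54 and 0.43. WARS1, another synthetase, had 77.7, 108, 41.2 and 30.8 CPM in hypoxia-gene-high cells, against 87.0, 96.8, 60.9 and 41.1 CPM in other cells (log2 ratio -0.14 ± 0.06, adjusted p = 0.0681). SLC7A11, the cystine carrier, had -0.11 ± 0.06 (adjusted p = 0.167). The size of the list's median depended on 1 ranking gene: with NDRG1 left out of the ranking it was 0.25, and with NDRG1 and BNIP3 left out it was 0.20. VLDLR, ATF3 and SLC7A11 stand on this list and on 1 other list each.

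Of 22 endoplasmic reticulum folding genes, 11 rose and 4 fell, with a median of 0.12. HERPUD1, of the degradation machinery, had 248, 320, 237 and 174 CPM in hypoxia-gene-high cells, against 152, 173, 152 and 106 CPM in other cells, a log2 ratio of 0.67 ± 0.04. SEL1L, its partner in degradation, rose by 0.60 and the factor XBP1 by 0.58. The chaperone HSPA5 had 471, 502, 468 and 292 CPM, against 398, 411, 395 and 229 CPM in other cells, a log2 ratio of 0.18 ± 0.04. SDF2L1 and CRELD2, targets of the same stress, fell by 0.46 and 0.44. SEC61B, of the translocation channel, fell by 0.37. SYVN1 fell by 0.23, but stood at 0.02 in DESeq2 and at 0.30 with equal weight per cell.

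Metallothioneins, small proteins that bind zinc and copper, were among the largest differences. MT1X had 658, 543, 673 and 383 CPM in hypoxia-gene-high cells, against 206, 170, 188 and 134 CPM in other cells, a log2 ratio of 1.60 ± 0.04 (adjusted p = 1.58e-24). MT2A had 4773, 3605, 5185 and 3656 CPM, against 2344, 1747, 2539 and 1871 CPM in other cells, a log2 ratio of 0.91 ± 0.04 (adjusted p = 7.60e-20). Neither gene's groups overlapped. Only these 2 of 8 metallothionein genes passed the rule for low counts, and since the family has near-identical copies, reads may have been split between them.

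Several of the 15 highest genes belong to no list. NPPB, the precursor of a natriuretic peptide, had 80.5, 92.5, 76.1 and 70.0 CPM in hypoxia-gene-high cells, against 26.1, 34.2, 18.7 and 19.6 CPM in other cells, a log2 ratio of 1.51 ± 0.06 (adjusted p = 7.60e-20). THBS2, a matrix glycoprotein, had 79.7, 81.2, 62.9 and 39.1 CPM, against 35.5, 32.6, 26.0 and 15.8 CPM in other cells, a log2 ratio of 1.16 ± 0.05. CADM1, an adhesion molecule, had 303, 315, 346 and 142 CPM, against 149, 136, 145 and 76.4 CPM in other cells, a log2 ratio of 1.03 ± 0.05. For CADM1 the Control value of hypoxia-gene-high cells lay below other cells of 2 other libraries. ERRFI1, which restrains the EGF receptor, had a log2 ratio of 0.95 ± 0.05, and NXPH4, of the neurexophilin family, had 0.92 ± 0.07.

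DNA replication genes fell. Of 29 S phase genes tested, 1 rose and 23 fell, with a median log2 ratio of -0.60, and 20 were lower in all 4 libraries. MCM4, of the replicative helicase, had 15, 23.0, 14.0 and 20.2 CPM in hypoxia-gene-high cells, against 23.9, 34.7, 27.5 and 21.5 CPM in other cells, a log2 ratio of -0.72 ± 0.08 (adjusted p = 3.28e-09). RFC2, of the clamp loader, had 14.8, 21.7, 22.5 and 14.2 CPM, against 23.7, 34.2, 27.0 and 23.6 CPM in other cells, a log2 ratio of -0.72 ± 0.08. The ranges of the groups overlapped between libraries for MCM4 and did not overlap for RFC2. CDC45 and CDC6, which act in the start of replication, fell by 1.01 each, and PCNA, the sliding clamp, by 0.60.

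The sum over the S phase list did not follow its median. The list summed to 1432, 1434, 1634 and 2111 CPM in hypoxia-gene-high cells, against 1365, 1557, 1599 and 1957 CPM in other cells, which differs in sign from its median in all libraries but Drug. The median was -0.40 with NDRG1 left out of the ranking.

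Genes of G2 and mitosis did not move one way. Of 36 tested, 1 rose and 5 fell, with a median of -0.04, and the medians within libraries were -0.08 in Drug_Radiation, 0.15 in Drug, -0.63 in Radiation and 0.28 in Control. UBE2C, of mitotic protein degradation, rose by 0.33 ± 0.05, and CKS2, a kinase subunit, fell by 0.38 ± 0.05. TOP2A, the topoisomerase of dividing cells, had 39.9, 76.1, 29.5 and 126 CPM in hypoxia-gene-high cells, against 37.4, 63.6, 45.8 and 66.5 CPM in other cells (log2 ratio 0.11 ± 0.07, adjusted p = 0.232). MKI67, a proliferation marker, had 0.26 ± 0.12 (adjusted p = 0.0868). CDC20, with a fall of 0.21, stood at 0.50 with NDRG1 left out of the ranking.

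Of 25 targets of p53, the factor that answers DNA damage, 7 rose and 4 fell, with a median of 0.06. CDKN1A, the cell cycle inhibitor p21, had 482, 390, 402 and 157 CPM in hypoxia-gene-high cells, against 478, 356, 392 and 174 CPM in other cells (log2 ratio -0.04 ± 0.04, adjusted p = 0.446). The death gene BBC3 (0.40), the receptor TNFRSF10B (0.26) and the repair gene DDB2 (0.22) rose, and TP53I3 (-0.64) and TIGAR (-0.39), which act on redox balance and sugar use, fell.

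Cytosolic heat shock genes fell: of 14 tested, 0 rose and 13 fell, with a median of -0.25. HSPE1, the mitochondrial cochaperonin that the list includes, had 617, 682, 572 and 696 CPM in hypoxia-gene-high cells, against 803, 921, 800 and 987 CPM in other cells, a log2 ratio of -0.54 ± 0.04. HSPA1A, an inducible chaperone with a near-identical copy, had 81.1, 82.3, 60.6 and 37.9 CPM, against 108, 107, 103 and 55.9 CPM in other cells, a log2 ratio of -0.52 ± 0.05. HSP90AA1 fell by 0.46. HSPH1 and HSPA4 fell by 0.15 and 0.13, but stood at 0.28 with cells thinned to 1000 UMIs and at 0.12 with equal weight per cell.

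Of 19 targets of NRF2, the antioxidant factor, 5 rose, 5 fell and 9 did not pass the test. Among all genes tested, 15.7% rose and 19.2% fell. NQO1, a quinone reductase, had 406, 441, 396 and 378 CPM in hypoxia-gene-high cells, against 629, 645, 666 and 531 CPM in other cells, a log2 ratio of -0.70 ± 0.04 (adjusted p = 9.67e-16), and its groups did not overlap. HMOX1, heme oxygenase, had 45.1, 38.9, 27.2 and 16.6 CPM, against 26.9, 28.0, 16.7 and 11.4 CPM in other cells, a log2 ratio of 0.55 ± 0.07. HMOX1 turned to -0.28 with cells thinned to 1000 UMIs. The glutathione synthesis genes GCLM and GCLC rose by 0.38 and 0.37.

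Lysosomal genes rose in 15 of 24 tests and fell in 2, with a median of 0.16. NPC1, the cholesterol exporter of the lysosome, had 50.9, 72.4, 47.4 and 22.5 CPM in hypoxia-gene-high cells, against 32.6, 37.2, 26.3 and 14.8 CPM in other cells, a log2 ratio of 0.71 ± 0.06. LAMP2, a membrane protein, rose by 0.43, and CD63 fell by 0.31. Of 18 genes of autophagy and mitophagy, 4 rose and 6 fell, among them OPTN at 0.24 and PINK1 at -0.49. Of 23 cholesterol synthesis and uptake genes, 2 rose and 11 fell, with a median of -0.15, and FDPS, of the mevalonate route, had -0.37.

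Matrix and mesenchymal genes rose in 13 of 27 tests and fell in 3, with a median of 0.12. MMP2, a gelatinase, had 88.9, 68.9, 38.1 and 34.4 CPM in hypoxia-gene-high cells, against 44.8, 30.1, 21.9 and 17.4 CPM in other cells, a log2 ratio of 0.97 ± 0.06. TGFBI, an adhesion protein of the matrix, had 51.9, 52.3, 43.5 and 23.7 CPM, against 27.2, 24.4, 23.3 and 11.2 CPM in other cells, a log2 ratio of 0.92 ± 0.06. Fibronectin, FN1, rose by 0.95 and COL1A1 by 0.78. The contractile gene TAGLN fell by 1.02 and SPARC, a matrix protein, by 0.39.

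Epithelial keratins went the other way. KRT8 had 1438, 1442, 1557 and 1329 CPM in hypoxia-gene-high cells, against 2340, 2306, 2956 and 1835 CPM in other cells, a log2 ratio of -0.80 ± 0.04 (adjusted p = 9.29e-17). KRT18, its filament partner, had 1794, 1924, 1710 and 2107 CPM, against 2794, 2961, 2865 and 2853 CPM in other cells, a log2 ratio of -0.72 ± 0.04. Neither gene's groups overlapped, but the ends of these neighbouring genes overlap on opposite strands and both have copies in the genome. Of 6 epithelial markers, 4 were tested and 3 fell, and the list summed to 3236, 3372, 3269 and 3443 CPM, against 5140, 5274, 5826 and 4693 CPM in other cells.

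Endothelial, leukocyte and mesothelial markers were low, while mesenchymal markers were not. The 5 endothelial markers were all under the limit for testing, with a summed level of 0 to 1.34 CPM in hypoxia-gene-high cells and 0.691 to 1.27 CPM in other cells. Of 6 leukocyte markers only CD68, which also serves the lysosomes of other cells, was tested, and it rose by 0.38. The leukocyte list summed to 21.3 to 59.1 CPM in hypoxia-gene-high cells and 16.2 to 40.5 CPM in other cells. Of 7 mesenchymal markers 6 were tested, 4 rose and 1 fell, among them VIM at 0.13 and THY1 at -0.34. The mesenchymal list summed to 3396 to 5497 CPM in hypoxia-gene-high cells and 2891 to 4694 CPM in other cells. Of 7 mesothelial markers 3 were tested, WT1 rose by 0.71, CALB2 fell by 0.29 and MSLN did not pass the test, and the list summed to 30.8 to 55.4 CPM, against 37.9 to 65.9 CPM in other cells. The part of these marker levels in the other results was not tested.

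**Figure D3:**
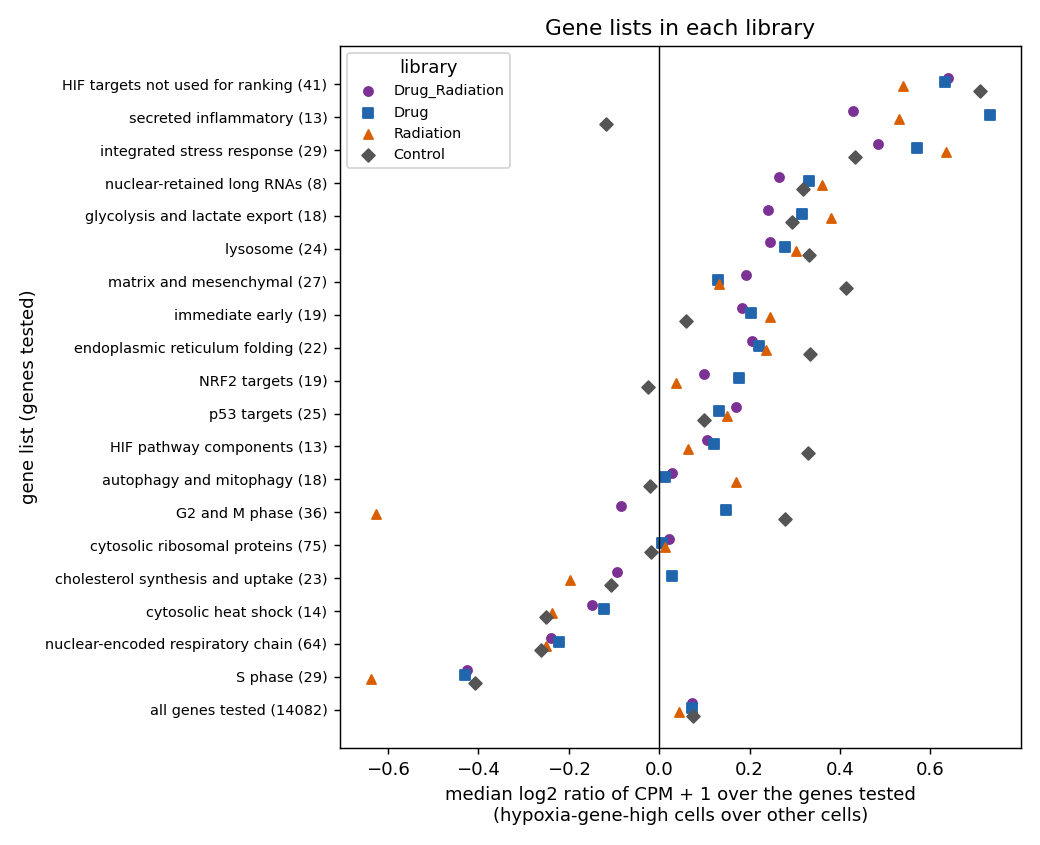
Median log2 ratio of CPM plus 1 over the tested genes of each list, hypoxia-gene-high cells over other cells, with 1 symbol per library and the number of tested genes in brackets. HIF targets lie right of 0 and respiratory chain and S phase genes left of it in every library, while G2 and M phase genes spread from -0.63 in Radiation to 0.28 in Control.

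Of 13 secreted inflammatory genes tested, 7 rose and 1 fell, with a median of 0.51, and 4 were higher in all 4 libraries. In Control the median was -0.12. The list summed to 1007, 1113, 833 and 691 CPM in hypoxia-gene-high cells, against 964, 1034, 875 and 744 CPM in other cells, so the sum was lower in hypoxia-gene-high cells of Radiation and Control. The chemokine CXCL8 rose by 1.57, from low counts in every library. IL1B, an interleukin, had 30.4, 37.8, 19.4 and 19.0 CPM in hypoxia-gene-high cells, against 19.2, 19.99, 15.1 and 7.04 CPM in other cells, a log2 ratio of 0.69 ± 0.07, but stood at -0.05 with cells thinned to 1000 UMIs. CCL5, a chemokine, rose by 0.51 and stood at -0.39 when thinned. Of 19 immediate early genes, 5 rose and 3 fell, led by ATF3 at 0.57. Of 8 nuclear-retained long RNAs, 5 rose and 0 fell: NEAT1, of nuclear paraspeckles, had 250, 242, 198 and 147 CPM, against 201, 195, 130 and 113 CPM in other cells, a log2 ratio of 0.27 ± 0.04, and MALAT1 had -0.06 ± 0.04 (adjusted p = 0.176).

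Cytosolic ribosomal protein genes had a direction that hung on the scaling. Of 75 tested, 0 rose and 55 fell, with a median of -0.10, but under plain totals 7 rose and 4 fell, with a median of 0.01. Over all genes TMM lowered the log2 ratio by a median of 0.08 relative to plain totals, and its factors differed by 0.08 in Drug_Radiation and Drug, 0.10 in Radiation and 0.18 in Control between the classes. RPS26 had 1006, 999, 541 and 502 CPM in hypoxia-gene-high cells, against 1258, 1241, 645 and 675 CPM in other cells, a log2 ratio of -0.42 ± 0.04, the largest fall on the list.

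The 10 lowest genes by the fixed order were of mixed kinds. ISG15, an interferon-induced modifier, had 61.2, 57.3, 48.2 and 39.1 CPM in hypoxia-gene-high cells, against 113, 102, 96.5 and 105 CPM in other cells, a log2 ratio of -0.99 ± 0.06 (adjusted p = 1.66e-15). EMP1, a membrane protein of epithelia, had 124, 132, 97.1 and 111 CPM, against 234, 267, 194 and 166 CPM in other cells, a log2 ratio of -1.02 ± 0.05. Neither gene's groups overlapped. PART1, a long noncoding RNA, had 14.2, 18.3, 10.9 and 32.0 CPM, against 47.7, 61.6, 33.1 and 49.6 CPM in other cells, a log2 ratio of -1.76 ± 0.08, with the Control pair closest together. PTGES, which makes prostaglandin E, had -0.85 ± 0.06, ST3GAL5, a ganglioside enzyme, -0.997 ± 0.06, and MRS2, the magnesium channel of mitochondria, -0.87 ± 0.06. UBE2T, of crosslink repair, had -0.86 ± 0.07 and MYCBP, which binds MYC, -0.78 ± 0.08. The noncoding RNAs LINC00707 and ENSG00000260877 had -1.02 and -0.93.

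HIF targets, stress response genes, respiratory chain genes and epithelial markers changed along the ranking and not in the top 10% alone. Metallothioneins did so too, with 1631 CPM in the lowest decile of Drug_Radiation and 5432 CPM in the highest. Glycolysis genes there had 11592 and 16912 CPM. Other lists did not all change in this way. S phase genes in Radiation summed to 1520 CPM in the lowest decile, 1515 CPM in decile 5 and 1631 CPM in the highest. In Drug the S phase sum was 1770 CPM in the lowest decile and 1433 CPM in the highest. In Drug_Radiation the HIF targets summed to 2077 CPM in the lowest decile of cells, 3147 CPM in decile 5 and 5255 CPM in the highest, which were the hypoxia-gene-high cells. In Control the lowest decile had 1583 CPM and the highest 3653 CPM. Respiratory chain genes fell along the ranking to 22166 CPM in the highest decile of Drug_Radiation, against 29434 CPM in the lowest. Epithelial markers fell to 3259 CPM in the highest decile of Radiation, against 7339 CPM in the lowest. In Control these markers had 3445 CPM in the highest decile and 4731 CPM in the lowest, with no steady decline between them. In Control 39.0% of other cells had 0 ranking UMIs, so its low deciles were ties in barcode order.

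**Figure D4:**
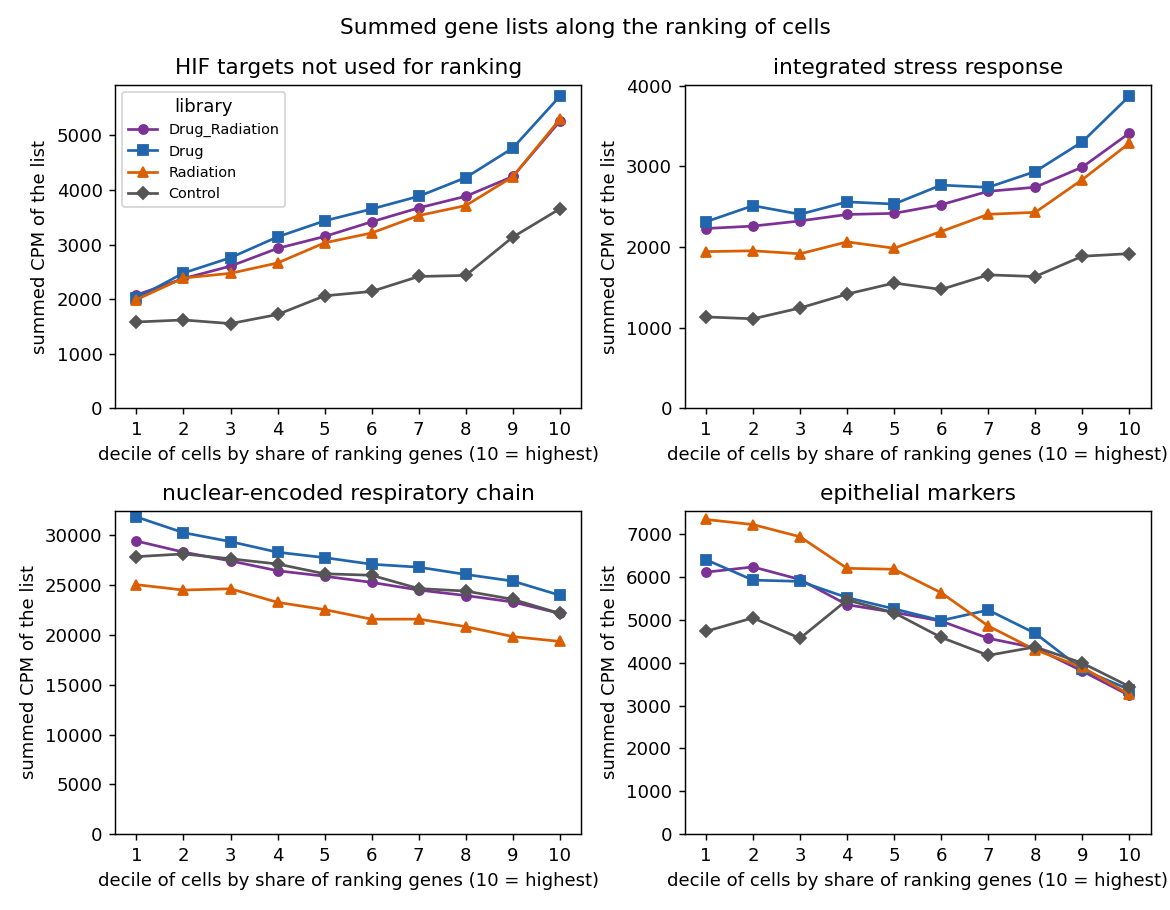
Summed CPM of 4 gene lists in deciles of the cells of each library, ordered from the lowest (1) to the highest (10) share of UMIs in the 8 ranking genes, with 1 line per library. HIF targets and stress response genes climb to the right and respiratory chain genes and epithelial markers decline, the markers in Control not steadily.

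Whether the difference between hypoxia-gene-high and other cells changed with treatment was asked with interaction terms for irradiation and for QTP, in a fit that was added after seeing the data and has 1 residual degree of freedom. For irradiation, 8 genes had a higher log2 ratio in irradiated libraries (0.0568% of genes tested) and 12 a lower one (0.0852%). For QTP, 2 were higher (0.0142%) and 2 lower (0.0142%). LOX had a log2 ratio of 1.44 in Drug_Radiation and 1.53 in Drug, against 2.13 in Radiation and 1.94 in Control, a difference of -0.51 with QTP (adjusted p = 0.000262), and it was the 1 HIF target past the test in either term. The libraries with QTP were also the deeper ones, so QTP and depth cannot be told apart here.

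How many cells were rich in the 8 genes differed between libraries, with no replicate. Above 1 common share of 1440 ranking UMIs per 1000000 lay 4.33% (95% exact binomial interval 3.87% to 4.84%) of cells of Drug_Radiation, 10.1% (9.16% to 11.1%) of Drug, 17.9% (16.4% to 19.4%) of Radiation and 7.73% (6.82% to 8.71%) of Control. With each cell thinned to 1000 UMIs, at least 2 ranking UMIs were found in 15.7%, 21.9%, 22.0% and 10.7% of cells. The order of the libraries differed between these measures, so none is drawn from them, and the intervals cover counting error only.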

How the data were processed

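Each library was a deposited matrix of raw counts, with UMIs listed by gene and barcode and not scaled by the authors. The labels' protocols name the PIPseq V T2 3-prime chemistry and the sample description names 10x Genomics, which leaves the platform unsettled. The genome build hg38 and the package Seurat 4.3.3 stand in the submitters' processing notes without a stated use. The sources used here name no aligner, counting program, strand or barcode calling. The 8 summed profiles held 843383 to 127911687 UMIs.

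Barcodes with 20% or more mitochondrial UMIs were left out (16, 4, 3 and 1 in Drug_Radiation, Drug, Radiation and Control), and doublets were not removed. UMIs were summed per library and class and scaled to nuclear-encoded totals without the 8 ranking genes (CPM). Log2 ratios within a library are of CPM plus 1, with exact 95% intervals for counting error. Calls came from edgeR 4.0.16 in R 4.3.3 (TMM, filterByExpr, library as a block, 3 residual degrees of freedom, adjusted p under 0.05) and the ratio ± SE in the text is from that fit. DESeq2 1.42.0 was an alternative. The p-values rest on how a difference varies over 4 differently treated libraries, since nothing gives separate cultures of 1 group. The fit shares information on variance between genes, so its SE can be narrower than the spread of 1 gene over the libraries. LOX, with an SE of 0.06, had log2 ratios of 1.44 to 2.13 within libraries. PART1, with an SE of 0.08, had -1.70 to -0.62.

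Named genes had a mean of at least 20 CPM: the 15 highest and 10 lowest called genes with the same sign in all 4 libraries, by the smallest absolute log2 ratio, up to 4 examples per list (2 highest and 2 lowest), and 15 genes named throughout, such as SLC2A1 and HIF1A. Other list members are given by their log2 ratio, and those singled out were chosen after their values were seen. The hypoxia-gene-high cells, the 25 gene lists and the tests were chosen with earlier results of these data known. Gene positions are from GENCODE 29, which held 92.0% of the 37468 feature IDs, and promoters from RefSeq (GRCh38.p14). A few genes covered by the naming rule are not reported here.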

Additional observations from a re-analysis of the deposited data

Results flagged for a closer look

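The values below are differences between libraries in the log2 ratio of hypoxia-gene-high over other cells. They come from interaction terms for irradiation and QTP in edgeR, tested over all genes, with 1 residual degree of freedom and 1 library per treatment, in a fit added after seeing the data. Only genes with a mean of at least 20 CPM are given. At an unadjusted p under 0.05 there were 382 genes for irradiation and 627 for QTP, against 20 and 4 after adjustment.

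In the fit, irradiated libraries had a higher ratio than libraries that were not irradiated for PAX5, a B-cell transcription factor (by 0.98, adjusted p = 8.71e-05, from 5 UMIs in hypoxia-gene-high cells of Control), PDZD2 (by 0.78), NPTX1, a secreted pentraxin (by 0.53, adjusted p = 0.00018), PTGDS, a prostaglandin synthase (by 0.41, with -0.01 in Radiation against 0.15 in Control), and GDF15, a stress cytokine (by 0.36, adjusted p = 0.0408). GDF15 had log2 ratios of 0.27 in Drug_Radiation and 0.46 in Radiation, against -0.01 in Drug and -0.07 in Control. A lower ratio in irradiated libraries was found for TK1, thymidine kinase (-0.67, adjusted p = 0.0408, from 12 UMIs in hypoxia-gene-high cells of Radiation), KRTAP2-3 (-0.70) and ENSG00000251131 (-0.90). For ENSG00000251131 the libraries did not share that direction, with -0.95 in Drug_Radiation and 0.66 in Radiation, against 0.31 in Drug and 0.09 in Control.

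Libraries with QTP had a higher ratio than those without for KLHL24 (by 1.16, adjusted p = 1.25e-05), which had log2 ratios of 0.49 in Drug_Radiation and 0.45 in Drug, against -0.65 in Radiation and -0.54 in Control. They had a lower ratio for LOX (-0.51) and for SLPI, a protease inhibitor (-0.49), though both were higher in hypoxia-gene-high cells of every library.

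The median over the G2 and M phase genes was below 0 in both irradiated libraries and above 0 in both others, a difference of -0.57 between the means, and this was not tested. The 4 libraries are not 1 group, so no search for an outlying sample was made.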

How the results depend on the processing

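No paired analysis beyond the library block was possible because each treatment had 1 library. Without the block 63 genes were higher and 34 lower, since the spread between libraries then enters the error. Leaving out each library gave 1221 to 2253 higher and 1659 to 2777 lower genes, thinning to 1000 UMIs 52 and 72, DESeq2 958 and 1781, and plain totals 3457 and 1766. Other choices kept both counts within 1.5 times.

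The medians of the 5 lists below kept their sign under every alternative run. For HIF targets the median was 0.88 against the lowest 50% of cells, 0.54 without NDRG1 in the ranking, 0.53 without NDRG1 and BNIP3, 0.29 thinned and 0.70 with plain totals. For glycolysis these were 0.33, 0.22, 0.031, 0.16 and 0.31, and 0.31 with equal weight per cell. For the respiratory chain they were -0.43, -0.24, -0.41, -0.17 and -0.24, with -0.30 for the top 20% of cells, -0.28 on split UMIs, -0.39 with no filter on low counts, -0.36 without the block and -0.22 with equal weight. For the integrated stress response the median was 0.63 against the lowest 50%, 0.25 without NDRG1, 0.20 without both and 0.22 thinned. For S phase it was -0.75, -0.40, -0.39 and -0.17 in that order, -0.84 for the top 5% and -0.47 with equal weight.

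Of 114 named genes, 33 changed sign under at least 1 alternative, and 23 of them had passed the main test or passed it with the opposite sign there. Values of these 23 follow. Thinned log2 ratios were FDXR 0.021, CDC20 0.10, SREBF2 -0.48, HSPH1 0.28, HMOX1 -0.28, CCN2 0.13, DUSP1 0.084, IL1B -0.055, CCL5 -0.39, IL32 0.011, CALB2 0.013, CDH2 -0.082 and HIF1A 0.21. With equal weight they were SYVN1 0.30, PMVK 0.077, HSPA4 0.12, LIPA 0.026 and CCN2 0.014. Without NDRG1 they were CDC20 0.50 and DUSP1 0.024, and without NDRG1 and BNIP3 HMOX1 -0.0085, CCN2 0.025, OPTN -0.042, SQSTM1 -0.13 and VIM -0.0083. Plain totals gave ATP5MC2 0.0089, RPL5 0.083 and RPS2 0.070, and SYVN1 was 0.024 in DESeq2 and 0.056 without the block. The cause was not tested. Depth limits Control most, where a hypoxia-gene-high cell had a median of 4 ranking UMIs.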
